A study of Mus musculus with 15 samples.

Results

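The mitosis genes are 39 protein-coding genes, chosen by symbol, whose products drive cells into mitosis, build the spindle, check the attachment of chromosomes, and separate the chromosomes and the daughter cells. All 39 were found among the 24451 genes of the count table, and all 39 were among the 14600 genes that passed the filter on low counts. They were measured by RNA sequencing in ES-R1 mouse embryonic stem cells during 4 days of differentiation. The medium was free of serum and held the supplements N2 and B27, and all cells carried an siRNA. Of the 5 groups of 3 libraries, the first had control siRNA with no addition, and the second had control siRNA with Activin A at 25 ng/ml. The third had control siRNA with the inhibitor SB, written SB431524 in titles but SB431542 in the text on the series, at a dose that the sources used here do not give. The fourth had an siRNA against Vprbp with no addition, and the fifth had Vprbp siRNA with Activin A at 25 ng/ml. Activin A is a ligand of the TGF-beta family that acts through Smad2 and Smad3, and SB blocks its type I receptors. Vprbp, also called Dcaf1, is a substrate receptor of a CRL4 ubiquitin ligase. The labels name a single cell line and no separate cultures for the replicates. The p-values therefore cover only the spread among these libraries, and that spread may be technical. RNA was measured in bulk, so fewer cells in mitosis and less RNA per cell cannot be told apart.

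Entry into mitosis is driven by the kinase Cdk1 bound to B-type cyclins, which Cdc25 phosphatases switch on, while Aurora and Polo-like kinases shape the spindle. The spindle checkpoint holds back the anaphase promoting complex until every chromosome is attached, after which Cdc20 turns the complex on, cyclin B and securin are destroyed and separase cuts cohesin. Many of these genes are transcribed late in the cell cycle through promoters that carry a CHR element (TTTGAA or TTCGAA) and CCAAT boxes, and embryonic stem cells are known for a short cycle with brief gap phases.

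Promoter sequence is shown because shared late-cycle elements are a feature of the group that the choice of genes did not use. In RefSeq's GRCm38.p6 promoters (250 bases before to 50 bases after a start), 31 of the 39 genes matched by symbol, with 33 promoters. TTTGAA or TTCGAA, read on both strands, occurred in 26 of the 33 (78.8%), against 19.2% of all 32851 promoters of that length. TTTGAA was in 24 (72.7%, against 17.9% of all) and TTCGAA in 4 (12.1%, against 1.56%). CCAAT, on both strands, was in 26 (78.8%), against 37.4% of all. A match is a description of the sequence, and matches of different motifs may share bases. The stretches below are the 120 bases directly before each gene's outermost annotated start, 5′ to 3′ on the gene's strand, with the motifs named above in capitals, in either orientation. The first 5 genes differed between Activin and SB in the tests below, and Cdk1 and Ccnb1 did not pass them. They lie on GRCm38.p6 at chr2:127831860-127831979 (minus strand) for Bub1, chr9:83834531-83834650 (plus strand) for Ttk, chr11:99024200-99024319 (minus strand) for Top2a, chr2:119618178-119618297 (plus strand) for Nusap1, chr4:118437344-118437463 (minus strand) for Cdc20, chr10:69352913-69353032 (minus strand) for Cdk1 and chr13:100786487-100786606 (minus strand) for Ccnb1.
Bub1: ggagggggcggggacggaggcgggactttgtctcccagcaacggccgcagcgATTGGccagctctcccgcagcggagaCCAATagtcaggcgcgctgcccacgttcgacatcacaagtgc
Ttk: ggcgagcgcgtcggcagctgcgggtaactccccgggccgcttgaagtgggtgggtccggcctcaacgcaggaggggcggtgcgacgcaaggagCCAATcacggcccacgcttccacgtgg
Top2a: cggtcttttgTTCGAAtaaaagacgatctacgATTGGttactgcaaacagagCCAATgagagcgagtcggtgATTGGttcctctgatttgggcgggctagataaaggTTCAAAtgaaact
Nusap1: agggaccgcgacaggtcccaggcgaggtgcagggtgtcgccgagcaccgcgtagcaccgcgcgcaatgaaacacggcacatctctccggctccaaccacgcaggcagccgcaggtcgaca
Cdc20: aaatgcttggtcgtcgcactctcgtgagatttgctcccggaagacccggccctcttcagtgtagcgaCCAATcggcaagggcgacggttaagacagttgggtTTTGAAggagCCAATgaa
Cdk1: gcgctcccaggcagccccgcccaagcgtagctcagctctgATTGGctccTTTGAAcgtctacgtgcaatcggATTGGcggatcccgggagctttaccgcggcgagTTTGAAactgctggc
Ccnb1: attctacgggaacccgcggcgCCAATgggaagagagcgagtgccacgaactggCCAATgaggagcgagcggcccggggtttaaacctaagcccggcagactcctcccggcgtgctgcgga

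Top2a held 2 matches to TTTGAA or TTCGAA and 3 to CCAAT in its stretch, and Cdk1 held 2 of each. Cdc20 held 1 and 2. The Bub1 and Ttk stretches held CCAAT only (2 and 1 matches) and the Nusap1 stretch held none of these motifs. Outside the stretches shown, the promoter window of Bub1 held TTCGAA and that of Ttk held TTTGAA on the opposite strand. Ccnb1 held 2 CCAAT and no match to the other motifs in its whole window. Of the genes that differed between Activin and SB, 13 had a promoter in the table and 10 of these held TTTGAA or TTCGAA. Of the other members, 18 had one and 14 held a match. The element was thus present in most promoters of both sets.

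The libraries held 11.1 M to 15.5 M counts in genes (M, mega), and the upper limit for a gene with a count of 0 lay between 0.193 and 0.269 CPM (counts per mega counts of a library), for counting error only. Of the markers of pluripotent cells, Pou5f1 lay between 333 and 825 CPM. Tdgf1 was at 23.5, 33.5 and 27.7 CPM with SB and between 130 and 586 CPM in the other libraries, and Dppa5a lay between 64.6 and 76.5 CPM with SB and between 191 and 267 CPM elsewhere. Not all such markers were lower with SB. Zfp42 lay between 158 and 181 CPM with SB and between 117 and 198 CPM elsewhere, and Esrrb between 488 and 615 and between 463 and 861 CPM. The summed level of 8 such markers ranged from 2336 to 2672 CPM with SB and from 3926 to 4655 CPM in the other 4 groups. The summed levels of 8 markers each of neuroectoderm, trophoblast, extraembryonic endoderm and fibroblasts were at most 281 CPM in any library. Neurog2, Elf5, Afp and Lum had no count in all 3 libraries of some groups. Vprbp, the target, was at 173.4, 166.9 and 172.8 CPM with control siRNA and at 121.1, 131.6 and 113.9 CPM with Vprbp siRNA. With Activin it was at 178.1, 175.2 and 183.9 CPM against 148.8, 131.4 and 134.7 CPM. Its RNA therefore fell by 0.49 ± 0.06 on the log2 scale without Activin (adjusted p = 0.00205) and by 0.37 ± 0.06 with Activin (adjusted p = 0.0374), with no overlap of the libraries. Here and below, ± after a log2 fold change is the standard error of edgeR's fit, and adjusted p comes from edgeR (quasi-likelihood test), adjusted over all 14600 genes by Benjamini-Hochberg. A gene is called, and said to have risen or fallen, where it is under 0.05.

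Of the untreated libraries, 1 stood apart in these genes. Control siRNA replicate 3 was the lowest of its group for 38 of the 39 mitosis genes, whereas it was the lowest for 39.4% of all genes tested. It was the lowest of all 15 libraries for 20 of the mitosis genes, a count for which the share over all genes was not computed. The summed level of the 39 genes was 8304 CPM in this library against 9668 and 9671 CPM in the other two of its group. The median deviation from each gene's mean over 15 libraries was -0.177 on the log2 scale in it, against 0.044 and 0.039. For 26 genes of S phase and replication, the median deviation in it was -0.013. On the first principal component (48.7% of the variance, with the SB libraries at the positive end), it lay at 15.6, between the other two libraries of its group, at -1.77 and 0.863, and the SB libraries, at 51.1 to 55.8. Vprbp siRNA replicate 3 was the lowest of its group for 28 of 39 members (37.9% of all genes) and lay at 7.27 on that component. Vprbp siRNA with Activin replicate 1 lay apart on the second component, at -35.0. Results that rest on these libraries are given with and without them.

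**Figure D1:**
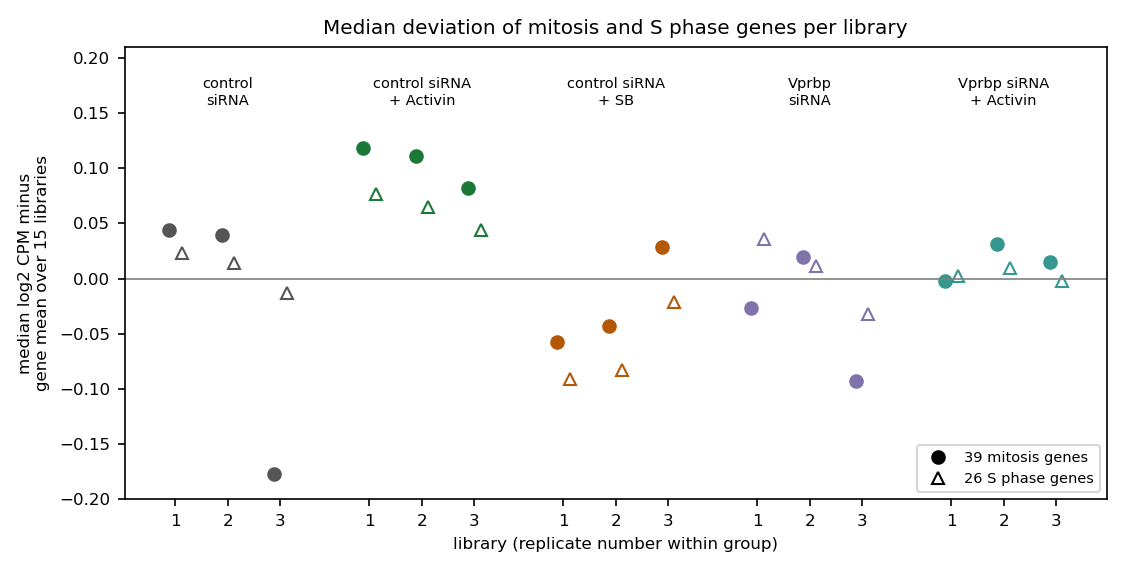
Median over genes of log2 CPM minus the gene's mean over 15 libraries (y axis), for 39 mitosis genes (filled circles) and 26 S phase genes (open triangles), in each library (x axis, by group and replicate number). Control siRNA replicate 3 sits at -0.177 for the mitosis genes and at -0.013 for the S phase genes.

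The 39 genes were expressed in every library. Per kilobase of exon, which is the scale on which genes can be compared, Top2a was highest at 198 CPM per kb (mean of 15 libraries), followed by Cdc20 at 151 and Ccnb2 at 128. Mad2l1 (12.5) and Cdc25b (18.2) were lowest. The exon length used for Mad2l1, 8032 bases, is longer than its whole RefSeq span (chr6:66535221-66541107). Its low value on this scale therefore depends on that length. Variation between libraries was small: the highest library was at 1.17 times the lowest for Birc5 and Ndc80 and at 1.66 times for Cdc25c, with the other members between. Summed over the members, the level was 9214 ± 788 CPM with control siRNA (SD, n = 3 here and below), 10166 ± 187 with Activin and 9170 ± 356 with SB. It was 9304 ± 312 CPM with Vprbp siRNA and 9506 ± 266 with Vprbp siRNA and Activin. The 3 sums with control siRNA and Activin, from 9993 to 10364 CPM, lay above those of all other libraries, the highest of which was 9720 CPM.

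**Figure D2:**
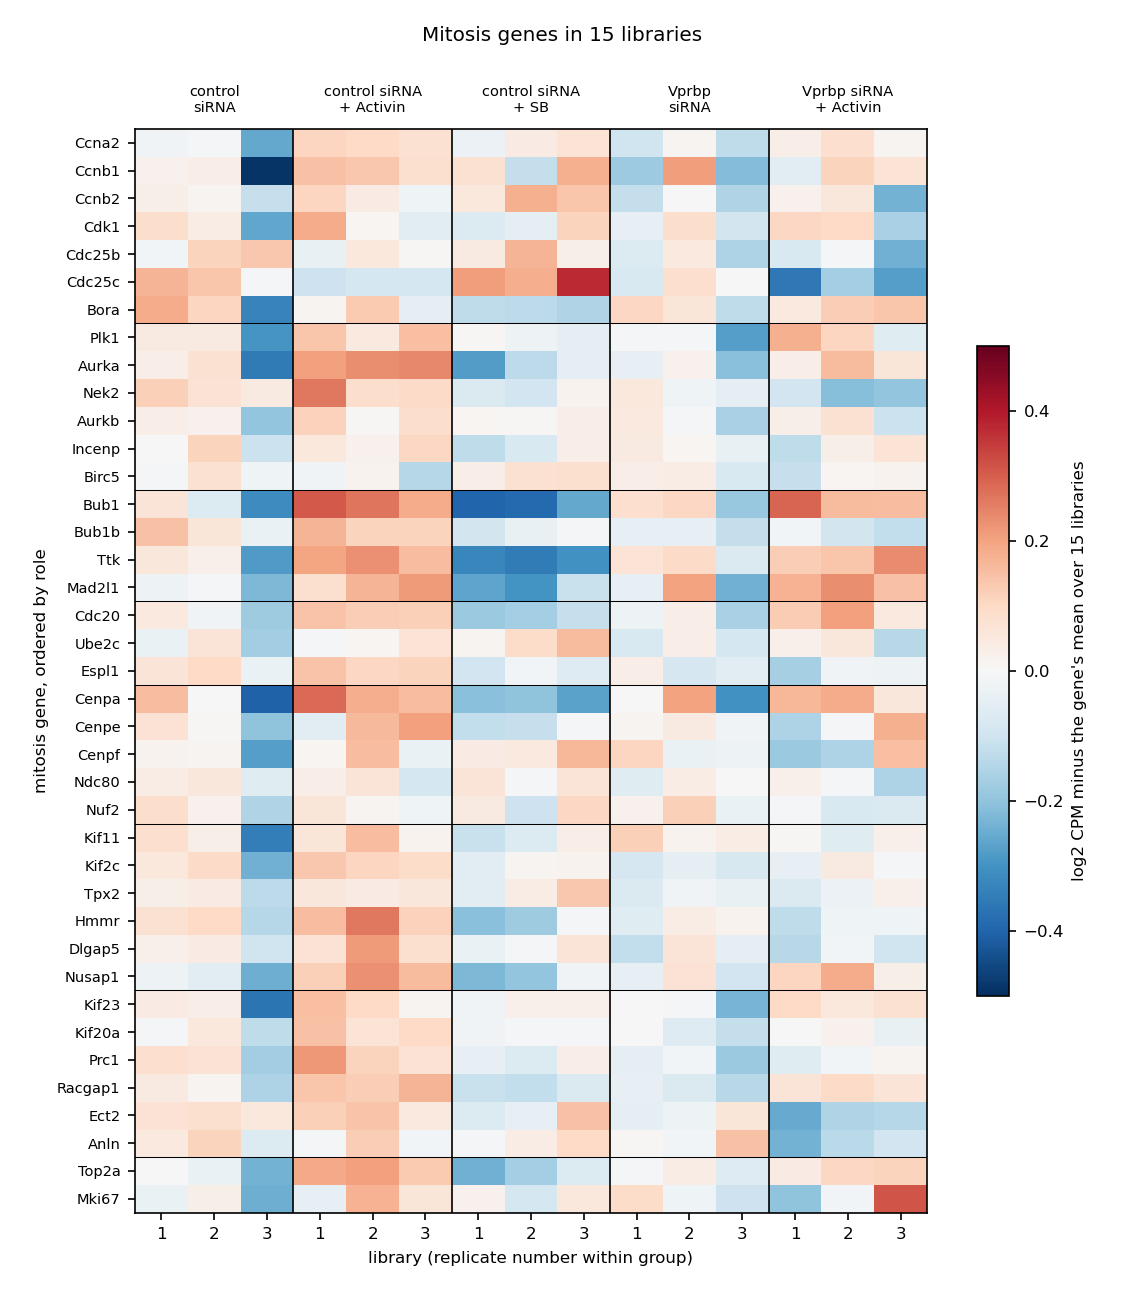
Log2 CPM of each mitosis gene minus its mean over 15 libraries (colour), with genes by role (rows, black lines between roles) and libraries by group (columns). Control siRNA replicate 3 is the lowest of its group in 38 of 39 rows, and the columns of control siRNA with Activin are red in most rows.

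Activin against SB with control siRNA compares cells with the pathway stimulated and blocked. Of the 39 mitosis genes, 13 were higher with Activin and 1 was lower (14 called, 35.9%). Among all genes tested, 38% were called, 19% higher and 19% lower. The share of members called was thus near the background, with 33.3% called higher and 2.56% lower. The fitted change was above 0 for 31 of 39 members (49.8% of all genes), with a median of 0.12 on the log2 scale against 0.00 over all genes. All 4 members grouped as spindle checkpoint genes were higher with Activin. The checkpoint genes Bub3 and Mad1l1 are not members and were counted with the other kinetochore, spindle and centrosome genes below. None of the 7 cyclins, Cdk1 and its activators was higher, and Cdc25c was lower.

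Bub1 and Ttk, both of the checkpoint, gave the largest differences of the 39. Bub1, a kinase that marks centromeres and recruits the checkpoint, was at 261.7, 254.8 and 240.5 CPM with Activin and at 160.6, 161.6 and 177.1 CPM with SB. Untreated control siRNA cells had 221.1, 201.6 and 170.1 CPM. The Activin libraries were all above the others, and the SB range overlapped the untreated one through control siRNA replicate 3. Bub1 was 51.6% higher with Activin than with SB (0.60 ± 0.09 on the log2 scale, adjusted p = 2.28e-05). Ttk, the Mps1 kinase that starts checkpoint signalling at unattached kinetochores, was at 145.1, 148.3 and 140.9 CPM with Activin. With SB it was at 101.0, 99.2 and 102.5 CPM, and untreated it was at 131.6, 128.7 and 103.9 CPM. The 3 Ttk ranges were in the order Activin, untreated, SB with no overlap, and Activin exceeded SB by 43.5% (0.52 ± 0.08, adjusted p = 1.95e-05). Mad2l1, which encodes the checkpoint effector Mad2 that binds Cdc20, was at 105.5, 112.4 and 115.7 CPM with Activin and at 83.1, 81.1 and 92.4 CPM with SB. Its untreated levels of 98.1, 99.1 and 85.4 CPM overlapped those with SB. The difference between Activin and SB was 0.38 ± 0.09 (adjusted p = 0.00227). Bub1b, the BubR1 protein of the mitotic checkpoint complex, was at 359.4, 344.7 and 345.2 CPM with Activin and at 299.3, 311.2 and 317.4 CPM with SB, 13.1% apart (adjusted p = 0.0197). Untreated Bub1b spanned both, at 353.7, 332.6 and 312.1 CPM.

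Among the genes of anaphase, Cdc20, the activator of the anaphase promoting complex, was at 296.6, 293.3 and 292.3 CPM with Activin and at 236.7, 239.0 and 248.1 CPM with SB. Untreated cells had 278.3, 266.0 and 237.9 CPM. The Activin libraries were above all untreated and SB libraries, and Activin exceeded SB by 0.29 ± 0.07 (adjusted p = 0.00181). Espl1, which encodes separase, was at 380.9, 371.4 and 372.5 CPM with Activin, 323.0, 342.1 and 330.3 CPM with SB and 361.2, 370.3 and 337.5 CPM untreated. It was higher with Activin than with SB by 0.18 ± 0.06 (adjusted p = 0.0219). Ube2c, the ubiquitin-conjugating enzyme of the complex, was not called (-0.06 ± 0.07), at 264.0 ± 7.0 CPM with Activin and 276.1 ± 13.8 CPM with SB.

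Of the mitotic kinases and passenger proteins, Aurka and Nek2 were called and Plk1, Aurkb, Incenp and Birc5 were not. Aurka, the kinase that matures centrosomes, was at 182.3, 185.9 and 186.9 CPM with Activin and at 130.5, 144.4 and 153.5 CPM with SB. Its untreated levels were 162.0, 167.1 and 124.0 CPM, so that the Activin libraries stood above all others with control siRNA. Activin exceeded SB by 0.37 ± 0.09 (adjusted p = 0.00302). Nek2, which separates centrosomes, was at 143.0, 126.6 and 127.3 CPM with Activin, 113.5, 111.4 and 120.8 CPM with SB and 129.3, 125.3 and 122.8 CPM untreated. The Nek2 difference was smaller, 0.20 ± 0.06 (adjusted p = 0.0172). The chromosomal passenger genes, which correct faulty attachments, gave -0.11 ± 0.06 (Birc5), 0.06 ± 0.07 (Aurkb) and 0.12 ± 0.07 (Incenp).

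Top2a, Nusap1, Hmmr, Racgap1 and Cenpa were the genes called in the remaining roles. Top2a, the topoisomerase that untangles sister chromatids, was the most abundant member, at 1176.9, 1187.6 and 1130.2 CPM with Activin. It was at 873.5, 916.2 and 983.3 CPM with SB and at 1030.6, 1007.2 and 876.2 CPM untreated. Activin libraries did not overlap either group, and the mean level was 1.26 times that with SB (0.33 ± 0.06, adjusted p = 0.000351). Nusap1, which bundles spindle microtubules, was at 246.2, 265.6 and 252.6 CPM with Activin, 193.8, 197.9 and 223.7 CPM with SB and 223.0, 218.2 and 191.5 CPM untreated. The SB and untreated ranges nearly coincided below that of Activin, which exceeded SB by 0.31 ± 0.07 (adjusted p = 0.00178). Hmmr, a spindle assembly protein, was at 320.1, 344.8 and 311.0 CPM with Activin, 248.3, 254.0 and 285.5 CPM with SB and 303.2, 307.6 and 260.4 CPM untreated, a difference of 0.31 ± 0.07 (adjusted p = 0.00177). Racgap1, a subunit of the centralspindlin complex that sets the cleavage plane, was at 194.1, 191.8 and 198.6 CPM with Activin, 163.4, 162.1 and 167.6 CPM with SB and 181.8, 177.8 and 158.4 CPM untreated. It was the only one of 6 cytokinesis genes that was called (0.25 ± 0.06, adjusted p = 0.0022). Cenpa, the histone variant of centromeres, was at 146.4, 136.4 and 134.1 CPM with Activin, 104.2, 104.8 and 99.9 CPM with SB and 134.0, 120.6 and 90.9 CPM untreated. Its Activin and SB libraries were far apart (0.43 ± 0.12, adjusted p = 0.0121), and the untreated ones spread from below SB to near Activin.

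Among the genes of mitotic entry Cdc25c alone was called. Cdc25c, a phosphatase that activates Cdk1, was at 38.9, 39.3 and 39.3 CPM with Activin, 48.2, 47.4 and 54.1 CPM with SB and 47.0, 46.0 and 41.5 CPM untreated. Its Activin libraries were below all others with control siRNA, and the level was lower with Activin than with SB (-0.35 ± 0.08, adjusted p = 0.00179). Ccnb1, the main mitotic cyclin, was at 88.4, 87.6 and 84.4 CPM with Activin, 84.1, 73.5 and 90.3 CPM with SB and 81.1, 81.8 and 56.8 CPM untreated. Cdk1 was at 148.8, 132.0 and 126.0 CPM with Activin, 124.8, 127.1 and 141.7 CPM with SB and 139.4, 134.6 and 109.4 CPM untreated. Activin and SB overlapped for both, with differences of 0.07 ± 0.13 (Ccnb1, adjusted p = 0.706) and 0.05 ± 0.09 (Cdk1, adjusted p = 0.725). Mki67, the proliferation antigen that coats mitotic chromosomes, was at 822.3, 953.5 and 883.3 CPM with Activin, 858.7, 796.0 and 877.8 CPM with SB and 826.5, 863.2 and 714.1 CPM untreated. It was not called either (0.07 ± 0.11, adjusted p = 0.639).

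11 of these calls held in all 13 other fits of this comparison, and the calls of Bub1b, Nek2 and Espl1 were lost in 3, 3 and 6 of them. Without control siRNA with Activin replicate 1, for example, the adjusted p was 0.0837 for Bub1b, 0.131 for Nek2 and 0.0747 for Espl1. Without the 3 libraries that stood apart, which enter this comparison only through the shared estimate of the spread, 18 members were called, 17 higher and 1 lower, with 45.8% of all genes called. The 4 added were Bora, Plk1, Cenpe and Prc1. The ranges of the 2 groups did not overlap for 22 members, 20 higher with Activin (27.2% of all genes) and 2 lower (27.6% of all genes). In the same comparison, 6 of 8 pluripotency markers were higher with Activin and 1 was lower, and 4 of 7 trophoblast markers tested were lower and 1 was higher. The summed trophoblast level was 53.7 to 66.1 CPM with SB and 29.4 to 32.1 CPM with Activin. Neuroectoderm markers summed to 158 to 183 CPM with SB and 143 to 148 CPM with Activin (1 of 7 higher, 3 lower). Extraembryonic endoderm markers summed to 236 to 281 and 159 to 197 CPM (1 of 7 higher, 2 lower), and fibroblast markers to 41.4 to 46.7 and 52.2 to 57.9 CPM (2 of 6 higher). The part of these shifts in the mitosis results was not tested.

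**Figure D3:**
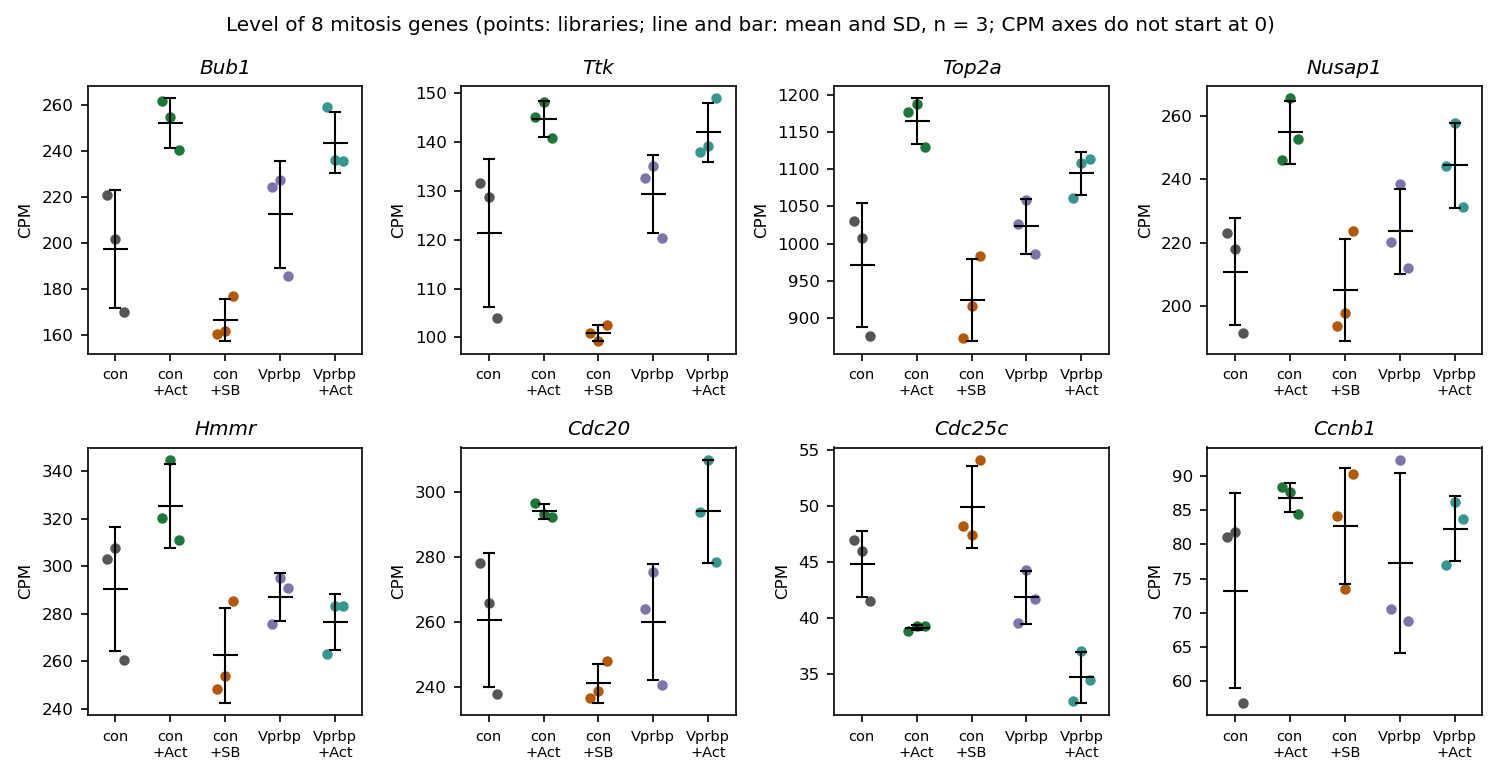
CPM (y axes, not starting at 0) of 8 mitosis genes in 5 groups (x axes); points are libraries, lines and bars the mean and SD of 3. For Bub1, Ttk, Top2a, Nusap1, Hmmr and Cdc20 every Activin library with control siRNA lies above every SB library, for Cdc25c below, and for Ccnb1 the groups overlap.

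Adding Activin to control siRNA cells gave fewer calls (3 against 14) than the comparison with SB, with which it shares the Activin libraries. Bub1, Top2a and Nusap1 rose and none fell, 3 of 39 (4.83% of all genes were called, 2.95% higher and 1.88% lower). From the libraries listed above, Bub1 rose from 197.6 ± 25.7 to 252.3 ± 10.8 CPM (0.35 ± 0.09, adjusted p = 0.026). Top2a rose from 971.3 ± 83.2 to 1165 ± 30.5 CPM (0.26 ± 0.06, adjusted p = 0.0233). Nusap1 rose from 210.9 ± 17.0 to 254.8 ± 9.92 CPM (0.27 ± 0.07, adjusted p = 0.0344). Aurka (0.29 ± 0.09, adjusted p = 0.071) and Ttk (0.25 ± 0.08, adjusted p = 0.0583) did not pass, nor did Ccnb1 (0.24 ± 0.13, adjusted p = 0.306). The fitted change was above 0 in 35 of 39 members (49% of all genes), with a median of 0.13 against -0.01 over all genes. Every one of the spindle checkpoint, anaphase, spindle and cytokinesis genes had a fitted change above 0, and the 4 exceptions were Cdc25b, Cdc25c, Birc5 and Ndc80. The groups did not overlap for 17 members that were higher (14% of all genes) and for 1 that was lower, Cdc25c (13.6%).

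These 3 calls changed as single libraries were left out. Without control siRNA replicate 3 no member was called (adjusted p = 0.128 for Bub1, 0.132 for Top2a, 0.175 for Nusap1), the median change was 0.05 and 2.07% of all genes were called. No member was called without any 1 of the 3 Activin libraries either (1.79% to 2.38% of all genes were called). Without control siRNA replicate 2 there were 2 calls (3.03% of all genes) and without replicate 1 there were 4 (4.88%). With all 3 libraries that stood apart left out, Bub1 alone was called (0.25 ± 0.06, adjusted p = 0.0125), beside 5.11% of all genes.

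Blocking the pathway with SB lowered Ttk and Bub1 and raised no member, 2 of 39 (22.6% of all genes were called, 11.2% higher and 11.3% lower). Ttk fell from 121.4 ± 15.2 to 100.9 ± 1.63 CPM (-0.27 ± 0.08, adjusted p = 0.0141). Bub1 fell from 197.6 ± 25.7 to 166.4 ± 9.25 CPM (-0.25 ± 0.09, adjusted p = 0.0472). The members' share of calls was thus below the background, and 21 of 39 fitted changes were above 0 (49.2% of all genes), with a median of 0.01 against 0.00 over all genes. Ccnb2, Cdc25c and Cenpf had SB libraries that were all above the untreated ones (18.8% of all genes) and Ttk and Nek2 all below (18.4%). Ccnb2, a B-type cyclin, went from 192.8 ± 10.5 to 213.6 ± 9.44 CPM (0.15 ± 0.07, adjusted p = 0.161).

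Control siRNA replicate 3 bore on this comparison in the opposite direction. Without it 5 members fell (Ttk, Bub1, Bora, Cenpa and Hmmr) and the median was -0.07. In that fit 23.1% of all genes were called, so the members' share stayed below the background. Without replicate 1 or replicate 2 of that group, or SB replicate 2, none was called, and without SB replicate 1 or 3 there was 1. Those fits called 16.2% to 17.5% of all genes. Without the 3 libraries that stood apart 9 members fell, among them all 4 spindle checkpoint genes: Bub1 (-0.34 ± 0.06, adjusted p = 8.09e-05), Ttk (-0.37 ± 0.06, adjusted p = 2.18e-05), Mad2l1 (-0.20 ± 0.07, adjusted p = 0.0356) and Bub1b (-0.15 ± 0.06, adjusted p = 0.0468). The others were Bora, an activator of Plk1, and Aurka, Cdc20, Cenpa and Hmmr. In that fit 29.2% of all genes were called, so the members' share again lay below the background. Control siRNA replicate 3 stood apart partly by its low level in these same genes. Fits without it therefore compare SB with a higher untreated level of them, and the added falls are not independent of that choice.

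**Figure D4:**
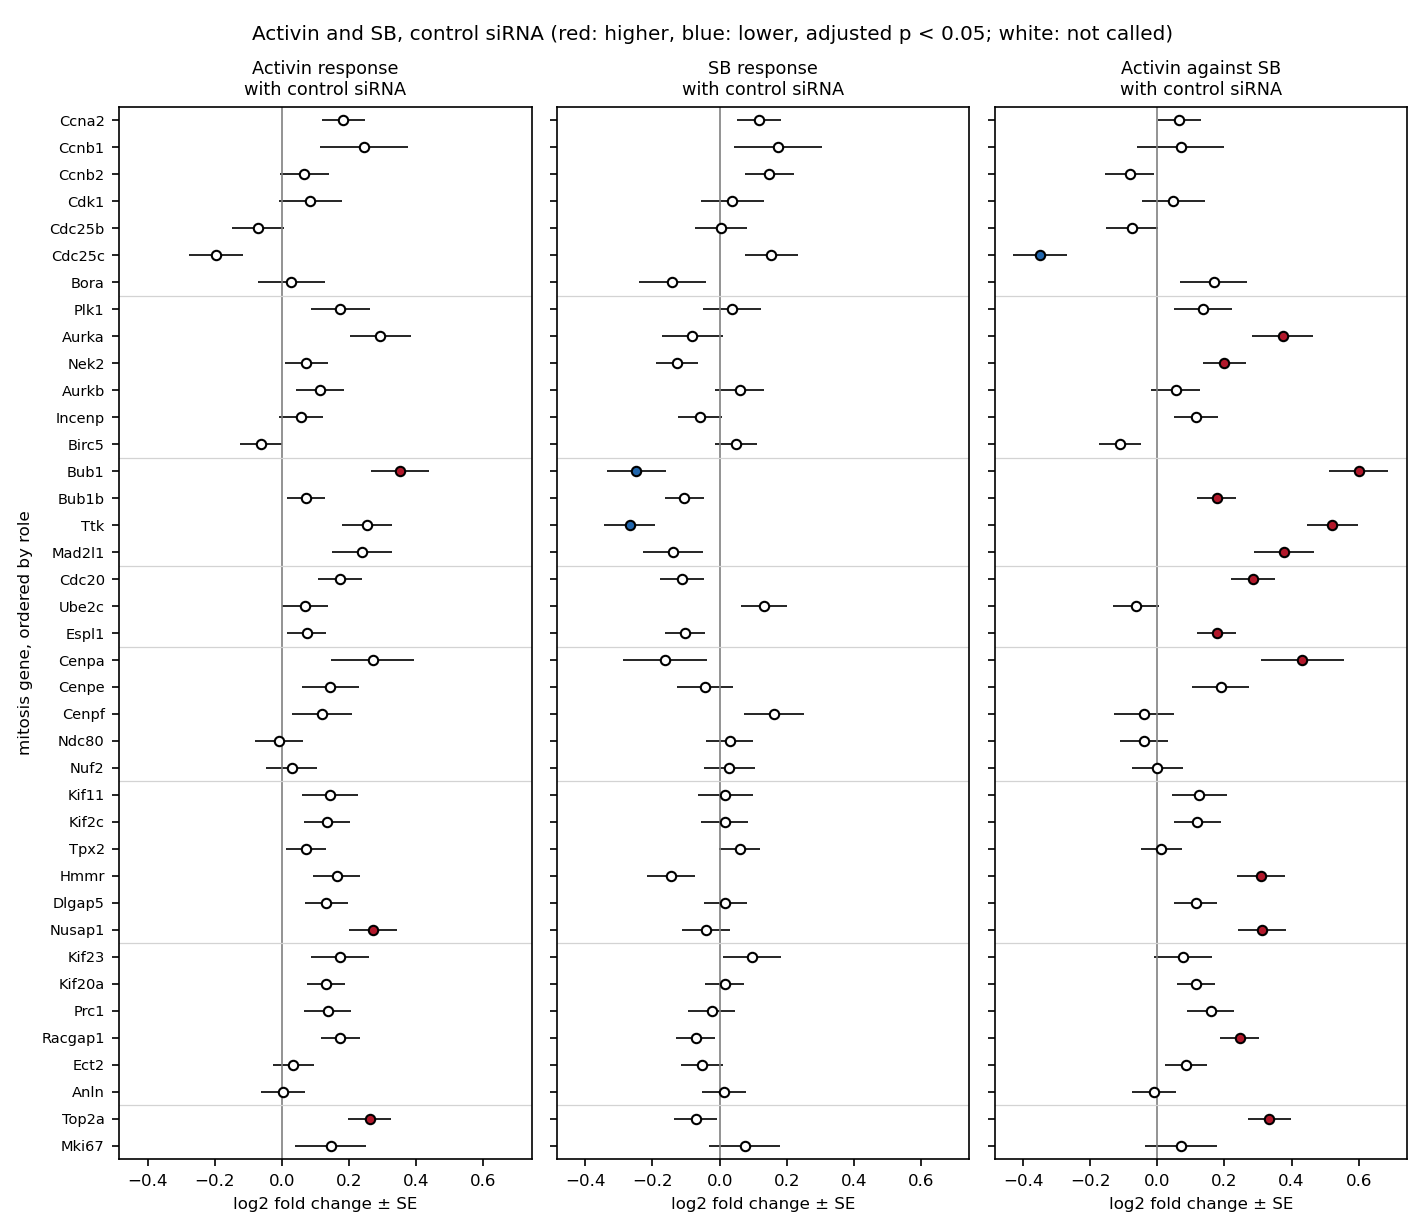
Log2 fold change with its standard error (x axes) of each mitosis gene, by role (y axis), for Activin against untreated, SB against untreated and Activin against SB, all with control siRNA; red and blue points are called higher and lower, white points not called. The 4 spindle checkpoint genes, from Bub1 to Mad2l1, are all red in the right panel and all below 0 in the middle one.

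With Vprbp siRNA, edgeR called no mitosis gene for Activin, 8 had an unadjusted p under 0.05 and DESeq2 called none. Of all genes, 6.12% were called and 19.7% had an unadjusted p under 0.05. Levels of Bub1 were 224.4, 227.6 and 185.8 CPM without and 259.2, 236.3 and 235.7 CPM with Activin, a shift of 0.20 ± 0.09 (adjusted p = 0.21). Top2a was at 1026.2, 1059.3 and 985.6 CPM without and at 1061.1, 1108.1 and 1114.2 CPM with Activin. Nusap1 was at 220.1, 238.5 and 212.2 CPM and at 244.1, 257.9 and 231.2 CPM. The libraries with Activin were above the others for Bub1 and Top2a and overlapped them for Nusap1. Cdc20 went from 264.1, 275.6 and 240.6 CPM to 294.0, 310.0 and 278.4 CPM (0.18 ± 0.07, adjusted p = 0.122), with no overlap. Cdc25c went from 39.6, 44.3 and 41.7 CPM to 32.6, 37.1 and 34.5 CPM, the lowest levels of this gene in any group (-0.27 ± 0.08, adjusted p = 0.0537). Anln, the scaffold of the contractile ring, was next, at 379.4, 374.4 and 417.7 CPM without and 320.5, 344.1 and 353.6 CPM with Activin (-0.20 ± 0.07, adjusted p = 0.0717). The median over members was 0.04 against -0.01 over all genes, and 23 of 39 fitted changes were above 0 (48.8% of all genes). Groups did not overlap for 8 members that were higher (11.2% of all genes) and 4 that were lower (10.2%), namely Cdc25c, Nek2, Ect2 and Anln. Without Vprbp siRNA replicate 2, Mad2l1 alone was called (0.33, adjusted p = 0.0235), beside 7.05% of all genes. Without the 3 libraries that stood apart no member was called (5.14% of all genes), and the median was 0.03.

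Vprbp knockdown without Activin left no detectable difference in these genes at this depth, number of libraries and degree of knockdown. Vprbp RNA was lowered only in part, from a mean of 171 to 122.2 CPM, so the effect of a fuller loss was not tested. edgeR called 0 of 39 (0.0411% of all genes were called), 1 had an unadjusted p under 0.05 (8.16% of all genes) and DESeq2 called 0. That gene was Bub1b, at 309.9, 309.9 and 294.0 CPM against 353.7, 332.6 and 312.1 CPM with control siRNA (-0.13 ± 0.06, adjusted p = 0.589), and its groups alone did not overlap (lower, 5.65% of all genes). Fitted changes ran from -0.14 (Cdc25b) to 0.12 (Kif11), with a median of 0.00, and 20 of 39 were above 0 (50.2% of all genes). Ttk was at 132.7, 135.2 and 120.3 CPM, Ccnb1 at 70.5, 92.4 and 68.8 CPM and Cdk1 at 127.2, 139.2 and 122.8 CPM with Vprbp siRNA, all overlapping the control. Without the 3 libraries that stood apart 0 of 39 were called (0.516% of all genes) and the median was -0.04. As single libraries were left out, the median moved between -0.08 and 0.06, with no member called.

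Vprbp knockdown with Activin gave lower fitted values in most members, and none was called. Here too Vprbp RNA was lowered only in part, from a mean of 179.1 to 138.3 CPM. edgeR called 0 of 39 (0.0411% of all genes), and 9 had an unadjusted p under 0.05, all lower (10.5% of all genes in either direction). DESeq2 called 2 (0.311% of all 24451 genes). The fitted change was below 0 in 35 of 39 (50.5% of all genes were above 0), with a median of -0.08 against 0.00 over all genes. Nek2 was at 111.4, 102.8 and 104.0 CPM with Vprbp siRNA and Activin against 143.0, 126.6 and 127.3 CPM with control siRNA and Activin (-0.32 ± 0.06, adjusted p = 0.0847). Ect2, the exchange factor that starts furrowing, was at 258.4, 277.3 and 278.8 CPM against 333.6, 338.9 and 317.8 CPM (-0.28 ± 0.06, adjusted p = 0.113). Both were well separated between the groups, and DESeq2 called both (adjusted p = 0.00358 and 0.0101). Bub1b was at 315.9, 299.1 and 293.1 CPM against 359.4, 344.7 and 345.2 CPM (-0.21 ± 0.06, adjusted p = 0.208). Hmmr was at 262.9, 283.1 and 283.4 CPM against 320.1, 344.8 and 311.0 CPM (-0.23 ± 0.07, adjusted p = 0.248). The other 5 with an unadjusted p under 0.05 were Dlgap5, Espl1, Anln, Prc1 and Cdc25c, from -0.21 to -0.15. Groups did not overlap for 15 members, all lower (9.03% of all genes were lower without overlap). The genes that responded most to the pathway were not among the largest: Bub1 gave -0.05 ± 0.09, and Ttk, at 137.9, 139.2 and 149.0 CPM with Vprbp siRNA and Activin, gave -0.03 ± 0.08. Top2a gave -0.09 ± 0.06. The 4 members with fitted values above 0 were Bora, Birc5, Mad2l1 and Cdc20. Without the 3 libraries that stood apart, Nek2 (-0.35 ± 0.07, adjusted p = 0.00606), Bub1b (-0.23 ± 0.06, adjusted p = 0.0374) and Ect2 (-0.24 ± 0.06, adjusted p = 0.0479) fell, while 1.39% of all genes were called. Vprbp siRNA with Activin replicate 1 had summed trophoblast markers of 72.4 CPM, and the lowest of its group was 29.7 CPM. Eomes alone was at 43.4 CPM in it, against 17.3 and 18.5 CPM in replicates 2 and 3. Of the extraembryonic endoderm markers, Sox17 (21.6 against 3.03 and 2.57 CPM) and Foxa2 (23.2 against 4.04 and 2.91 CPM) were also higher in it. So were Gata6 (22.8 against 11.5 and 13.2 CPM), Gata4 (27 against 15.3 and 14.2 CPM) and, at a low level, Afp (0.719 against 0.144 and 0 CPM). The remaining markers of that list, Sox7, Dab2 and Lama1, were lower in it than in replicates 2 and 3. The part of these differences in the result was not tested.

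**Figure D5:**
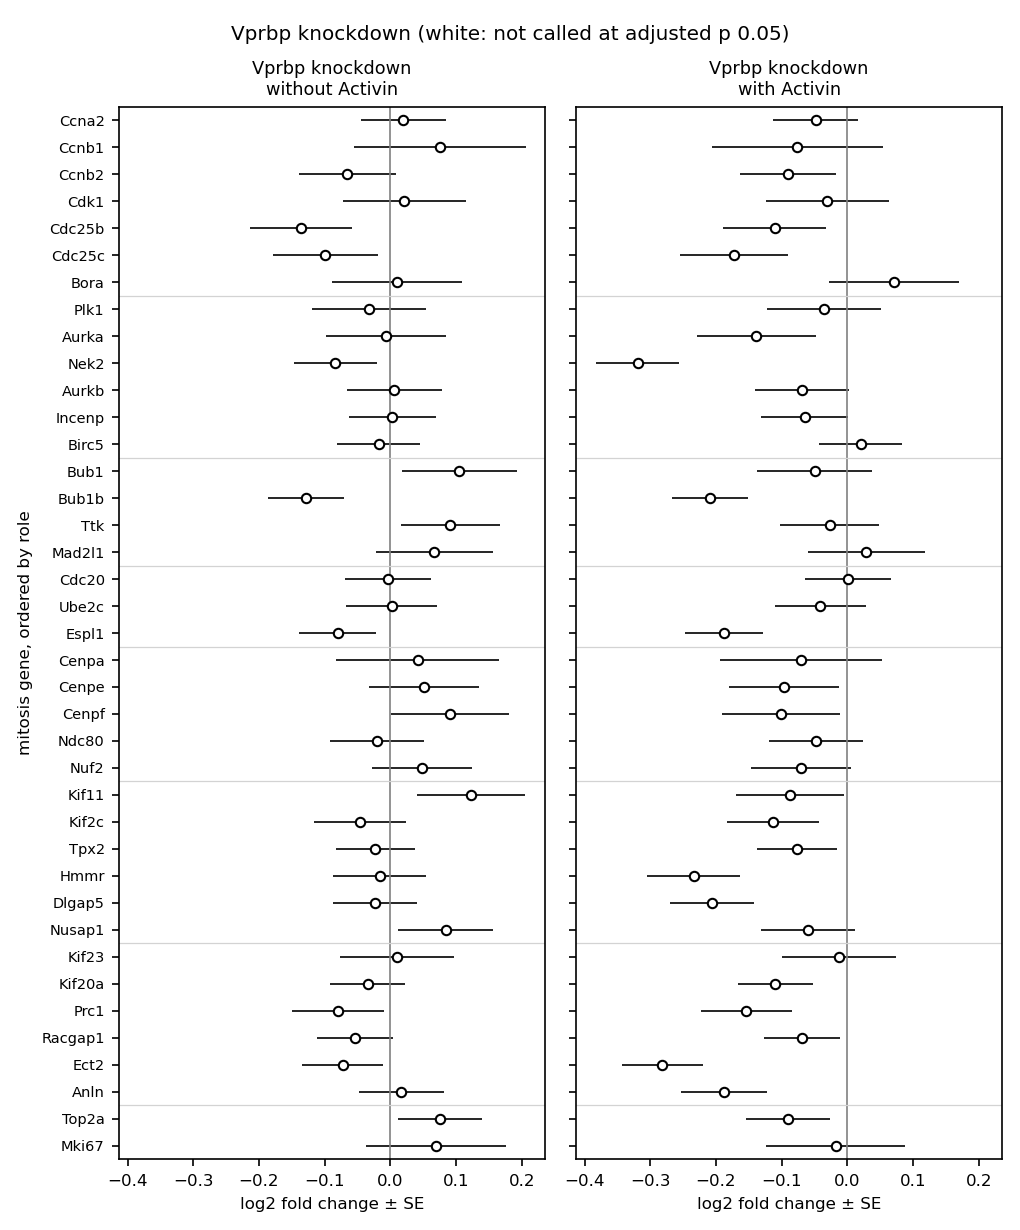
Log2 fold change with its standard error (x axes) of each mitosis gene, by role (y axis), for Vprbp siRNA against control siRNA without Activin (left) and with Activin (right). No point is called; on the right 35 of 39 lie below 0, with Nek2 and Ect2 farthest.

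Whether the Activin response differed between the siRNAs was tested as the difference of the 2 responses. edgeR called 0 of 39 (0% of all genes), 4 had an unadjusted p under 0.05 (3.54% of all genes) and DESeq2 called 0. The 4 were Nek2 (-0.24 ± 0.09), Ect2 (-0.21 ± 0.09), Anln (-0.20 ± 0.09) and Hmmr (-0.22 ± 0.10), each with an adjusted p of 0.999. The fitted difference was below 0 for 35 of 39 (50% of all genes were above 0), with a median of -0.08 against 0.00 over all genes. As single libraries were left out, this median moved between -0.12 (without control siRNA replicate 2) and -0.003 (without control siRNA replicate 3). The shift of the median thus depended on control siRNA replicate 3. Without the 3 libraries that stood apart the median was -0.04, with no member called. The Activin responses of Bub1, Top2a and Nusap1, called with control siRNA and not with Vprbp siRNA, were therefore not shown to differ between the siRNAs.

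Other genes of the cell cycle were read from 7 lists of 141 genes, all of which passed the filter. Between Activin and SB, 11 of 26 S phase and replication genes were higher with Activin and 1 was lower, with a median of 0.12 (19% of all genes were called in each direction). The sliding clamp Pcna (0.31 ± 0.07, adjusted p = 0.000952) and the uracil glycosylase Ung (0.30 ± 0.07, adjusted p = 0.00161) were higher. The ribonucleotide reductase subunit Rrm2 was lower (-0.25 ± 0.05, adjusted p = 0.000875). Condensin and cohesin gave 6 of 20 higher and none lower, led by the cohesin acetyltransferase Esco2 (0.65 ± 0.09, adjusted p = 6.06e-06). Other kinetochore, spindle and centrosome genes went both ways, with 10 of 34 higher and 7 lower, as the chromokinesin Kif22 (0.41 ± 0.06, adjusted p = 2.3e-05) and the Ndc80 complex subunit Spc24 (-0.66 ± 0.11, adjusted p = 7.04e-05). In the anaphase promoting complex list 3 of 15 were higher and 1 lower, and Pttg1, which encodes securin, gave 0.87 ± 0.15 (adjusted p = 0.000433). In the list of mitotic entry and phosphatase control 2 of 9 were higher, Ppp2r2d and Fbxo5, which encodes Emi1 (0.31 ± 0.06, adjusted p = 0.000789).

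Among 21 regulators of late cell cycle transcription 6 were higher with Activin than with SB and 1 was lower (19% of all genes in each direction). Mybl1, the A-Myb factor, was at 58.1 ± 6.91 CPM with Activin and 29.7 ± 3.4 CPM with SB (0.97 ± 0.16, adjusted p = 0.000176). Tfdp2, a partner of E2F factors, gave 0.76 ± 0.11 (adjusted p = 4.75e-05) and the repressor E2f7 0.46 ± 0.08 (adjusted p = 6.88e-05). Foxm1, a late-cycle activator, was the lower one, at 180.5 ± 7.79 CPM with Activin and 206.4 ± 7.99 CPM with SB (-0.19 ± 0.07, adjusted p = 0.0301). Of 16 CDK inhibitors and G1 cyclins 5 were higher and 7 were lower, against the same background. The inhibitors Cdkn1c (-1.55 ± 0.24, adjusted p = 0.000351), Cdkn2c (-1.17 ± 0.26, adjusted p = 0.00115) and Cdkn2a (-1.08 ± 0.16, adjusted p = 2.86e-05) were lower, and the kinase Cdk2 was higher (0.47 ± 0.06, adjusted p = 8.08e-06). Cdkn1c was at 125.3 ± 24.9 CPM with SB and 42.8 ± 2.87 CPM with Activin. Cdkn2c was near 1 to 3 CPM in every group.

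SB alone moved 31 of the 141 genes, 22% (22.6% of all genes were called). It lowered 3 S phase genes, among them Ung (-0.33 ± 0.07, adjusted p = 0.00116), and raised none. In late-cycle transcription 5 fell and Foxm1 rose (0.20 ± 0.07, adjusted p = 0.0361). Among CDK inhibitors and G1 cyclins 5 rose, such as Cdkn1c (1.18 ± 0.23, adjusted p = 0.0036), and 2 fell. In the anaphase promoting complex list 2 rose and 2 fell, and in kinetochore and spindle genes 3 rose and 5 fell. In condensin and cohesin 2 fell, and in the mitotic entry and phosphatase list Ppp2r2d fell. Activin with control siRNA moved 2 (1.42%, against 4.83% of all genes), Cdkn2c (-0.92 ± 0.26, adjusted p = 0.0453) and Ccnd2, a G1 cyclin (0.50 ± 0.13, adjusted p = 0.0464). With Vprbp siRNA it moved 3 (2.13%, against 6.12% of all genes), Cdkn2c (-1.16 ± 0.27, adjusted p = 0.0122), Ccnd3 (-0.36 ± 0.09, adjusted p = 0.0147) and Rrm2 (-0.23 ± 0.05, adjusted p = 0.0111). For Vprbp knockdown, edgeR called none of the 141 with or without Activin (0.0411% of all genes in each). With Activin 16 had an unadjusted p under 0.05 (11.3%, against 10.5% of all genes), and without Activin 4 had (2.84%, against 8.16%). DESeq2 called 1 and 0. With Activin the fitted knockdown change was below 0 for 106 of the 141 with a median of -0.06, beside -0.08 for the mitosis genes, so lower fitted values were found in other cell cycle genes as well.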

How the data were processed

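Mouse ES-R1 cells were measured by RNA sequencing in 5 groups of 3 libraries. The authors deposited raw fragment counts per gene symbol, without normalization. The submitters' processing notes name HTSeq 0.6.1p1 and build mm10. Aligner, annotation and strand setting: not given in the sources used here. Reads of overlapping and of antisense genes can therefore not be separated. 5 tally rows were kept out. Depth ranged from 11.1 M to 15.5 M counts in genes. The 39 genes, the other lists and the rule for genes given per library (the 14 smallest adjusted p-values, with Ccnb1, Cdk1, Top2a and Mki67) were chosen with earlier results of these data known.

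Counts were filtered with filterByExpr (minimum count 10), scaled by TMM (factors 0.985 to 1.02) and fitted with 1 mean per group over all 15 libraries by edgeR 4.0.16 (robust quasi-likelihood test, R 4.3.3). Benjamini-Hochberg adjustment was over 14600 genes within each of 7 comparisons, at a threshold of 0.05. The biological coefficient of variation was 8.76%. CPM use the scaled library sizes. Exon lengths are from GENCODE M21 and promoters from RefSeq GRCm38.p6. The procedure was tested on simulated counts.

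Replicates differed beyond sampling noise in every pair (chi-square per degree of freedom 2.75 to 16.1). Same-numbered libraries of the untreated control and Vprbp siRNA groups deviated together over genes (r = 0.123, 0.196 and 0.369). The main fit did not use this pairing, and its p-values are unpaired. A replicate block was among the alternatives below. Other groups did not reach r above 0.1 at all 3 numbers. Alternatives were RLE size factors, library totals, no filter, DESeq2 1.42.0, a replicate block, only the libraries compared, and leaving out each library. Leaving out the 3 libraries that stood apart was added after seeing the data.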

Additional observations from a re-analysis of the deposited data

How the results depend on the processing

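Of 63 results for single genes, 843 values under other settings gave 775 with the same direction and side of the threshold, 38 that lost and 21 that gained a call, and 9 that reversed. No call reversed. Percentages in brackets after counts are the share of all genes called in the same fit, for DESeq2 of all 24451 genes. The count for Activin against SB was 14 (38%), and 11 to 13 without single libraries (30.6% to 32.3%). It was 19 with only the libraries compared (48.8%) and 18 without the 3 libraries that stood apart (45.8%). For Activin with control siRNA it was 3 (4.83%), and 0 to 4 without single libraries (1.79% to 4.88%). It was 5 with the replicate block (7.25%) and 5 with DESeq2 (3.75%), and both added Aurka and Ttk. Without the 3 libraries that stood apart it was 1 (5.11%). For SB it was 2 (22.6%), and 0 to 5 without single libraries (16.2% to 23.1%). It was 1 with library totals (22.8%), 1 with only the libraries compared (21.9%) and 9 without the 3 libraries (29.2%). For Activin with Vprbp siRNA it was 0 (6.12%), and 0 to 1 without single libraries (2.37% to 7.9%). With the replicate block it was 2 (8.17%), Cdc25c and Anln, both lower. For Vprbp knockdown with Activin it was 0 (0.0411%), and 2 with the replicate block (0.349%) and 2 with DESeq2 (0.311%), Nek2 and Ect2 both times. Without the 3 libraries it was 3 (1.39%). The replicate block changed no other call of a member. This includes the knockdown without Activin, where same-numbered libraries deviated together. The reversed values were of genes not called. As single libraries were left out, Cdk1 ran from -0.017 to 0.147 for Activin, from -0.063 to 0.104 for SB and from -0.026 to 0.103 for Activin against SB, Mki67 from -0.001 to 0.132 for SB and Ccnb1 from -0.011 to 0.136 for Activin against SB. Cdk1 for SB was also at -0.017 without SB replicate 3. Without the 3 libraries Cdk1 gave -0.018 for Activin and -0.062 for SB, and Mki67 -0.001 for SB. The cause was not tested. With 3 libraries a group, the median standard error of a member was 0.07 on the log2 scale (0.10 for the difference of responses), which limits the size of change that can be called.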
